A study of Mus musculus with 6 samples.

Results

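The p53 pathway was followed through 36 genes: Trp53, which encodes the transcription factor p53, its feedback regulators, and genes listed as p53 targets. The targets were grouped by role in growth arrest, cell death, DNA repair and metabolism. Whether p53 controls each of them in these cells was not tested. The genes were matched by symbol, and all 36 were among the 31205 genes of the count table. The cells were DC2.4, a dendritic cell line made from mouse bone marrow with myc and raf oncogenes carried by retroviruses. RNA-seq was done on 3 libraries of DC2.4 control cells and 3 of a DC2.4 derivative in which PD-L1 was knocked out, called control 1 to 3 and knockout 1 to 3 here. The labels name no treatment for either group, and they do not say whether the derivative is 1 clone or whether a group's libraries stem from different cultures. The p-values therefore rest on library-to-library spread alone, and that spread may be technical.

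In unstressed cells p53 protein is kept low by Mdm2, a ubiquitin ligase that p53 itself induces, and by the Mdm2 relative Mdm4. DNA damage and oncogene activity stabilize the protein, which binds paired decamers of DNA near its target genes. The targets stop the cell cycle (Cdkn1a), start apoptosis (Bbc3), repair DNA and alter metabolism, and some of them bear on ferroptosis, the form of cell death named in the title of the study. Control of p53 lies mostly at the protein, which RNA-seq does not measure.

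The libraries held 10918498 to 23250065 counts. Levels are CPM, counts scaled to a common library size with TMM factors, and fold changes are log2 differences, knockout minus control. A gene was called where the adjusted p of edgeR's quasi-likelihood test was under 0.05. In bulk RNA, fewer cells that express a gene and less RNA per cell cannot be told apart. Cd274, the PD-L1 gene, had no lower level in libraries with the knockout label (5.78 ± 1.09 CPM in control against 7.08 ± 1.44 in knockout, SD, n = 3, adjusted p = 0.415). A count summed over the gene cannot show a small deletion, so the directions reported rest on the sample labels. In control 2, 12 fibroblast and stromal markers summed to 226 CPM, with Col1a1 at 132 and Fn1 at 81.9 CPM, against 0.249 to 1.25 CPM in the other 5 libraries. Of that list Dcn, Lum and Thy1 had 0 counts everywhere. The part of that library in the results was not tested beyond leaving it out. Values with a library left out stand beside the calls of the genes named here that were then lost, and they rest on 5 libraries, so a call can be lost with the fold change little moved.

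Of 18 myeloid and dendritic cell markers 14 could be tested, among them Cd74 (217 to 285 CPM over the libraries) and Ptprc (180.2 to 256 CPM). Flt3, Batf3, H2-Ab1 and H2-Aa were at or near 0, with at most 0.652 CPM. Of the 14, 1 was higher and 3 were lower in knockout (28.6% called, near the 25.3% of all tested genes). The lysozyme gene Lyz2 had 140.2, 93.2 and 100.3 CPM in the controls and 20.8, 13.6 and 13.2 in the knockouts. Lyz2 fell (log2 fold change -2.81, SE 0.23, adjusted p = 9.34e-05), as did the receptor gene Csf1r (log2 fold change -0.72, SE 0.16, adjusted p = 0.0143) and the transcription factor gene Zbtb46 (log2 fold change -0.72, SE 0.24, adjusted p = 0.0490), and the costimulatory ligand gene Cd80 rose (log2 fold change 0.53, SE 0.15, adjusted p = 0.0318). Lyz2 was called under all 17 alternatives. Leaving out a library ended the calls of Csf1r (control 2, knockout 2 and knockout 3, then log2 fold change -0.62 to -0.73 and adjusted p = 0.0613, 0.0590 and 0.0538 in that order), Zbtb46 (control 2, control 3, knockout 2 and knockout 3, then log2 fold change -0.61 to -0.68 and adjusted p = 0.179, 0.171, 0.144 and 0.1502 in that order) and Cd80 (control 1, control 2, control 3, knockout 2 and knockout 3, then log2 fold change 0.43 to 0.60 and adjusted p = 0.0682, 0.0933, 0.0578, 0.122 and 0.0570 in that order). With offsets for exon length and GC content the adjusted p was 0.183 for Zbtb46 (log2 fold change -0.45) and 0.0542 for Cd80. The part of these markers in the p53 results was not tested.

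Promoter sequences show where the letters of the p53 decamer consensus occur next to these genes. Binding by p53 was not measured, so a match is not a site shown to be bound. RefSeq promoters (GRCm38.p6, the assembly also named mm10; 250 bases before to 50 bases after a start) were matched for 28 of the 36 genes, 37 promoters in all. Pmaip1, Trp53inp1, Zmat3, Perp, Rrm2b, Ddb2, Gls2 and Tnfaip8 had no entry. The p53 decamer consensus, searched on both strands, occurred in 13 of 37 promoters (35.1%), in 8.36% of all 32851 promoters and in 6.72% of those of tested genes. Decamers in a pair, at most 13 bases apart, occurred in 1 of the 37, a Cdkn1a promoter, and in 0.0731% of all promoters (0.0347% of those of tested genes). Cdkn1a has an upstream start and another 2790 bases downstream, and the pair lies at positions -73 to -42 from the upstream start. The search allowed no mismatch. The stretch tgacatgttc directly after the pair departs from the consensus only in its first base, so it was not counted or marked. Which of these decamers p53 binds was not tested. The promoter is shown whole (chr17:29090729-29091028, plus strand), with the pair and its spacer in capitals, because it held the only paired match and Cdkn1a is the central arrest target.
Cdkn1a: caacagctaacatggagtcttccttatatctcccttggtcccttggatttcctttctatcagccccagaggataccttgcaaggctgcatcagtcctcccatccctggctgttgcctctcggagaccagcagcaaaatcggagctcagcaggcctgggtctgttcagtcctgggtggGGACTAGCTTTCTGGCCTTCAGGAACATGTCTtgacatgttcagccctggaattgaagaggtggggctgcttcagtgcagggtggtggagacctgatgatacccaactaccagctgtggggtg

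Single decamers, in capitals with 10 bases on each side, are shown for 6 genes, of which Rps27l was higher in knockout, Sesn1 was lower, and Trp53, Mdm2, Ccng1 and Bax did not pass the test. Positions are counted from the start site, and the strand is that of the gene.
Rps27l, position -210 to -201: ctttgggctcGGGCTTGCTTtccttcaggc
Rps27l, position -107 to -98: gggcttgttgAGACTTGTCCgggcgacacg
Sesn1, position -173 to -164: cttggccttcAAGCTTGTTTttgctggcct
Trp53, position -75 to -66: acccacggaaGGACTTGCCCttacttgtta
Mdm2, position -186 to -177: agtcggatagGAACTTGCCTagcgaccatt
Ccng1, position -185 to -176: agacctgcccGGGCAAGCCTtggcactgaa
Bax, position -201 to -192: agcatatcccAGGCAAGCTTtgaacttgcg

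Aen, Ei24, Gadd45a, Polk and Ppm1d also had a decamer in these windows. The called genes Gdf15, Bbc3, Gadd45b, Tigar, Mdm4, Btg2, Apaf1 and Pidd1 had no match, which says only that these letters are not in these windows. The cAMP response element TGACGTCA occurred in promoters of Btg2, Plk2 and Ppm1d (3 of 37, 8.11%, against 1.79% of all promoters and 3.18% of those of tested genes). TGATGNAA, the core of the element bound by ATF4 and CHOP, occurred in promoters of Gadd45g and Polk (2 of 37, 5.41%, against 3.97% of all promoters and 2.30% of those of tested genes). Of the genes with TGACGTCA, Btg2 was lower in knockout, while Plk2 (log2 fold change 0.60) and Ppm1d (0.30) had positive values and were not called. The Btg2 element is shown because Btg2 was among the most lowered of the 36 genes, and its part in the fall of Btg2 was not tested.
Btg2, position -166 to -159: ttcccaataaTGACGTCAgtgagcgatg

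Of the 36 genes 33 had enough counts to be tested. In knockout 6 were higher and 7 lower, 13 of 33 (39.4%), where 25.3% of all 11453 tested genes were called, 11.8% higher and 13.5% lower. The median log2 fold change was 0.03 for the 33 genes and 0.01 for all tested genes. Gdf15, Bbc3, Gadd45b, Rps27l, Cdkn1a and Tigar were higher, and Trp53inp1, Btg2, Pidd1, Apaf1, Mdm4, Ddb2 and Sesn1 were lower. By role, the arrest and growth genes had 3 higher and 1 lower of 10 tested, the death genes 2 and 3 of 10, the metabolic genes 1 and 1 of 5, the repair genes 0 and 1 of 3, and p53 with its feedback regulators 0 and 1 of 5. These counts moved with single libraries. With control 1, 2 or 3 left out there were 3, 2 and 4 higher and 7, 0 and 4 lower, and with knockout 1, 2 or 3 left out 11, 3 and 2 higher and 9, 2 and 3 lower. The 0 lower genes of edgeR's test without control 2 compare with 7 at an unadjusted p under 0.05. The counts over all tested genes moved with the same libraries. They were 166 higher and 472 lower of 11607 without control 2, and 2346 and 2616 of 11747 without knockout 1. Scaling by library totals, which put the median of all genes at -0.14, gave 2 higher and 8 lower of the p53 genes.

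**Figure D1:**
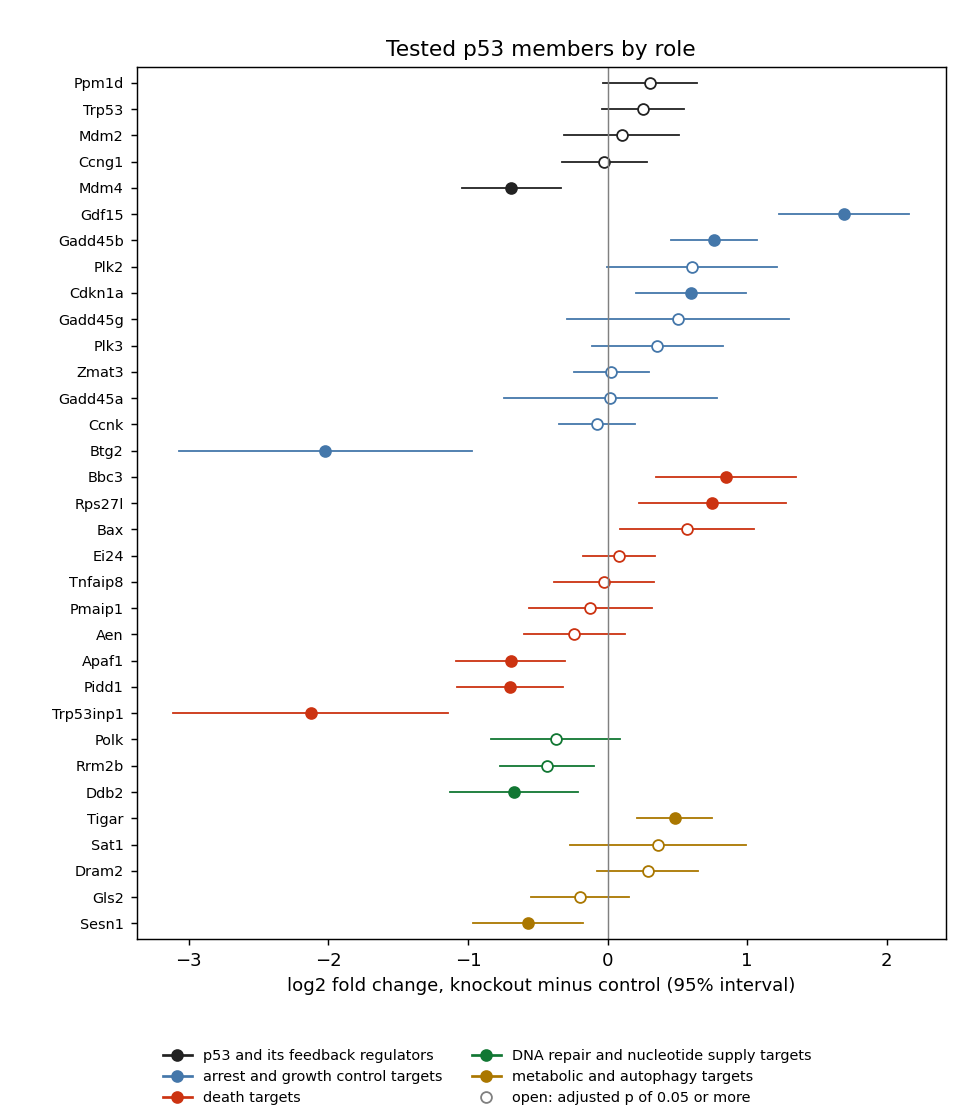
Log2 fold change (knockout minus control, with its 95% interval) of the 33 tested p53 genes, coloured by role and filled where the gene was called. Gdf15 lies farthest to the right at 1.69, and Trp53inp1 and Btg2 farthest to the left at -2.13 and -2.02.

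Trp53 itself (ENSMUSG00000059552.13, chromosome 11, 69580359 to 69591873, mm10) had 180.3, 166 and 171 CPM in the controls and 189, 194 and 234 in the knockouts. The knockout libraries all lay above the controls, by little except in knockout 3. The means were 173 ± 7.198 CPM in control against 206 ± 25.0 in knockout (SD, n = 3), and the difference was not called (log2 fold change 0.25, 95% interval -0.04 to 0.55, adjusted p = 0.176).

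Mdm2, the ligase that degrades p53 and is its target (ENSMUSG00000020184.15, chromosome 10, 117688875 to 117710758), had 202, 281 and 277 CPM in the controls and 211, 293 and 312 in the knockouts. Library 1 was the lowest in each group and the groups overlapped (log2 fold change 0.10, 95% interval -0.31 to 0.51, adjusted p = 0.707).

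Mdm4, which blocks the activation domain of p53 (ENSMUSG00000054387.13, chromosome 1, 132959484 to 133030561), had 129.8, 192 and 172 CPM in the controls and 109.5, 96.5 and 101 in the knockouts. The groups did not overlap, and the spread was wider in control. Mdm4 fell from 165 ± 31.8 to 102 ± 6.63 CPM (log2 fold change -0.69, SE 0.16, adjusted p = 0.0147). It has the longest exon sequence of the 36 genes, 14798 bases, and with offsets that remove the trend with exon length and GC content in each library its log2 fold change was -0.23 (adjusted p = 0.239). The call was lost as well when 1 of 3 libraries was left out (control 2, knockout 2 and knockout 3, then log2 fold change -0.56 to -0.67 and adjusted p = 0.0836, 0.0606 and 0.0583 in that order).

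Ppm1d, a phosphatase that switches off damage signalling, had 29.5 ± 3.43 CPM in control against 36.3 ± 4.50 in knockout (log2 fold change 0.30, 95% interval -0.04 to 0.64, adjusted p = 0.162). Leaving out knockout 1 brought it past the threshold (0.40, adjusted p = 0.0438). Ccng1, a cyclin that brings a phosphatase to Mdm2, had 75.5 ± 4.60 CPM in control against 74.4 ± 9.12 in knockout (log2 fold change -0.02, 95% interval -0.33 to 0.28, adjusted p = 0.917).

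**Figure D2:**
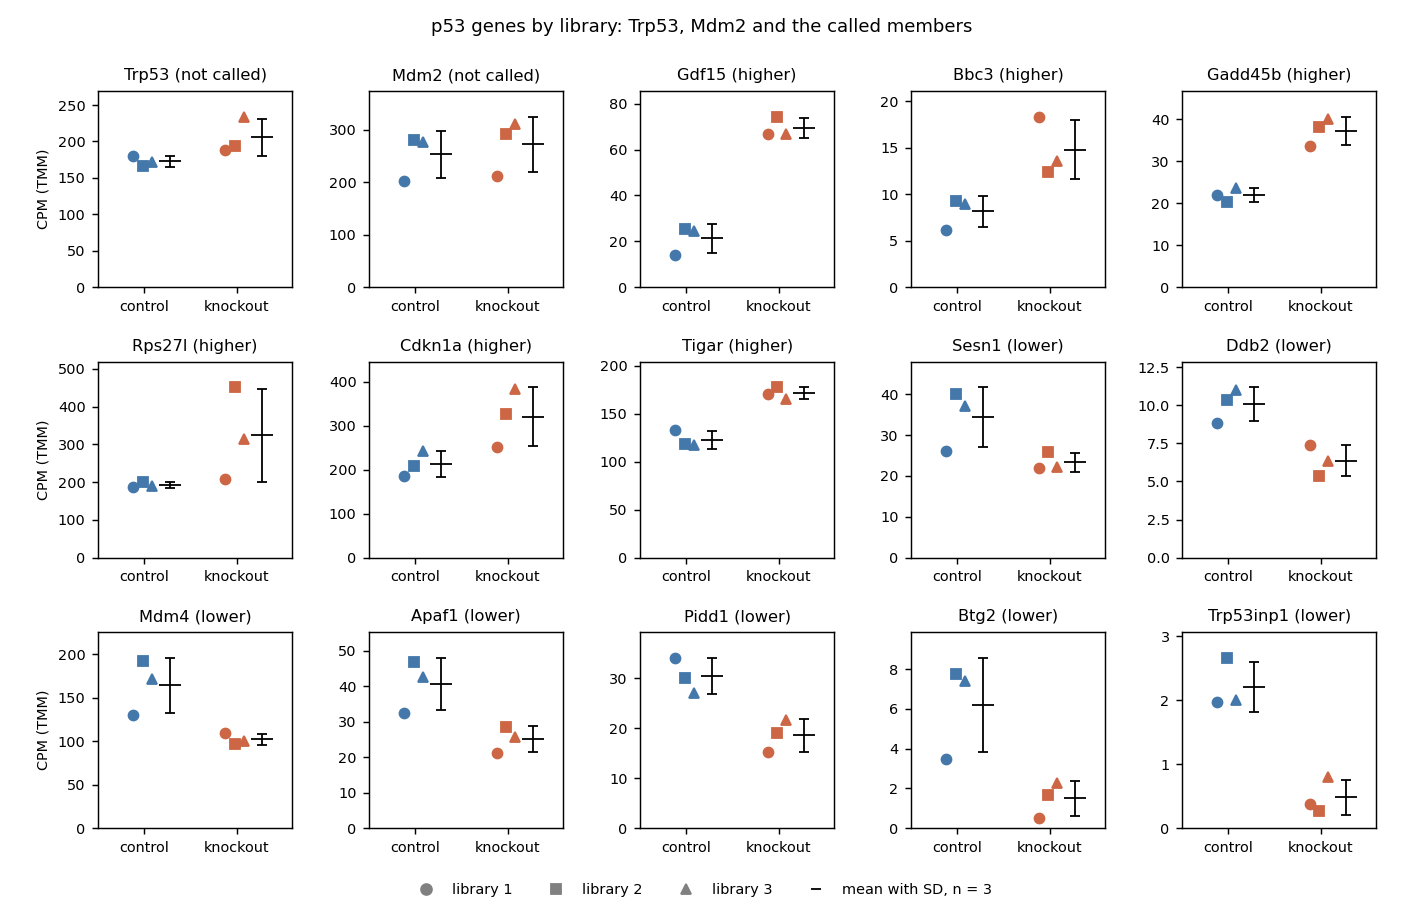
CPM (TMM-scaled, linear axis from 0) of Trp53, Mdm2 and the 13 called members in each library, with the mean and SD of 3 libraries in black. Gdf15 went from at most 25.5 CPM in control to at least 66.8 in knockout, and Rps27l in knockout 1 (207 CPM) lies just above the controls.

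Gdf15, a secreted stress cytokine of the TGF-beta family (ENSMUSG00000038508.7, chromosome 8, 70629393 to 70632456), had 14.1, 25.5 and 24.3 CPM in the controls and 66.8, 74.4 and 67.0 in the knockouts. The gap between the groups was wider than either group's range. Gdf15 rose from 21.3 ± 6.32 to 69.4 ± 4.33 CPM, 3.26 times the control mean (log2 fold change 1.69, SE 0.21, adjusted p = 0.00105). It was called under all 17 alternatives, with log2 fold changes of 1.39 to 1.84, and was the 1 member called against a null of a 1.5-fold change (edgeR's glmTreat, adjusted p = 0.00484). Gdf15 is also a known target of the ATF4 and CHOP stress pathway.

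Cdkn1a, the kinase inhibitor p21 (ENSMUSG00000023067.14, chromosome 17, 29090976 to 29100727), had 185, 208 and 244 CPM in the controls and 251, 327 and 385 in the knockouts. The groups did not overlap, but knockout 1 lay only just above control 3. Cdkn1a rose from 212 ± 29.5 to 321 ± 67.1 CPM (log2 fold change 0.60, SE 0.18, adjusted p = 0.0354). The call was lost when 1 of several libraries was left out (control 1, control 2, knockout 2 and knockout 3, then log2 fold change 0.45 to 0.58 and adjusted p = 0.0989, 0.131, 0.101 and 0.134 in that order), and was also lost when scaled by library totals (adjusted p = 0.0928) or with the length and GC offsets (0.0624).

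Gadd45b, a growth arrest protein that signals to stress kinases (ENSMUSG00000015312.9, chromosome 10, 80930073 to 80932204), had 21.9, 20.3 and 23.7 CPM in the controls and 33.5, 38.1 and 40.1 in the knockouts. Both groups were tight and well apart. Gadd45b rose from 22.0 ± 1.69 to 37.3 ± 3.39 CPM (log2 fold change 0.76, SE 0.14, adjusted p = 0.00662), and it stayed called with each library left out in turn. With the length and GC offsets it was called at a smaller log2 fold change of 0.42 (adjusted p = 0.0326). Its paralogs did not pass the test. Gadd45g had 6.03 ± 1.66 CPM in control against 8.63 ± 3.97 in knockout (log2 fold change 0.51, 95% interval -0.29 to 1.30, adjusted p = 0.311), with 4.23 CPM in knockout 1 and 11.95 and 9.70 in knockout 2 and 3. Gadd45a was low in both groups, 2.31 ± 0.763 CPM in control against 2.38 ± 0.417 in knockout (log2 fold change 0.02, 95% interval -0.74 to 0.78, adjusted p = 0.968).

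Btg2, an antiproliferative protein that promotes the deadenylation of mRNA (ENSMUSG00000020423.6, chromosome 1, 134075170 to 134079120), had 3.49, 7.76 and 7.39 CPM in the controls and 0.529, 1.68 and 2.29 in the knockouts, from 355 and 78 counts in all. Library 1 was the lowest in each group, and the groups did not overlap. Btg2 fell from 6.22 ± 2.37 to 1.499 ± 0.894 CPM (log2 fold change -2.02, SE 0.47, adjusted p = 0.0155), and the call was lost without single libraries (control 2 and knockout 2, then log2 fold change -1.84 to -2.09 and adjusted p = 0.0727 and 0.0561 in that order). Its direction was opposite to that of Cdkn1a, Gadd45b and Gdf15.

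The stress-induced kinases Plk2 and Plk3 were, like Gadd45g, low in knockout 1. Plk2 had 67.3 CPM there, inside the control range of 47.3 to 84.2, and 120.3 and 135 in knockout 2 and 3 (log2 fold change 0.60, 95% interval -0.01 to 1.22, adjusted p = 0.126). Plk3 had 17.5, 27.7 and 32.2 CPM in knockout and 18.8 to 22.0 in control (log2 fold change 0.36, 95% interval -0.11 to 0.83, adjusted p = 0.231). Without knockout 1, Plk2 (0.84, adjusted p = 0.00574), Plk3 (0.56, 0.0106) and Gadd45g (0.81, 0.0192) were called. Plk2 was called with no filter on low counts too (adjusted p = 0.0212). The RNA-binding protein Zmat3 had a log2 fold change of 0.03 (95% interval -0.24 to 0.30), or 0.43 with the length and GC offsets (adjusted p = 0.0308). Ccnk, a cyclin that partners transcriptional kinases, had -0.08 (95% interval -0.35 to 0.20).

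Among the death genes, Bbc3, the BH3-only protein PUMA (ENSMUSG00000002083.13, chromosome 7, 16308393 to 16318205), had 6.17, 9.30 and 8.91 CPM in the controls and 18.3, 12.4 and 13.6 in the knockouts. Knockout 1 was the highest library, and the groups did not overlap. Bbc3 rose from 8.13 ± 1.71 to 14.8 ± 3.16 CPM (log2 fold change 0.85, SE 0.22, adjusted p = 0.0235). Bbc3 lost its call without single libraries (control 1, control 2 and knockout 3, then log2 fold change 0.70 to 0.95 and adjusted p = 0.0547, 0.0693 and 0.0574 in that order), when scaled by library totals (0.70, adjusted p = 0.0626) and with the length and GC offsets (0.62, 0.102).

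Rps27l, a p53-induced paralog of a ribosomal protein (ENSMUSG00000036781.13, chromosome 9, 66946086 to 66949516), had 188, 201 and 189 CPM in the controls and 207, 452 and 314 in the knockouts. The knockout libraries were all above the controls and differed widely among themselves. Rps27l rose from 193 ± 6.97 to 324 ± 123 CPM (log2 fold change 0.75, SE 0.24, adjusted p = 0.0427). Its call was kept without knockout 1 and lost without any other library (control 1, control 2, control 3, knockout 2 and knockout 3, then log2 fold change 0.43 to 0.78 and adjusted p = 0.105, 0.120, 0.0948, 0.154 and 0.0923 in that order). The adjusted p was 0.0549 with limma-voom, 0.0756 when scaled by library totals and 0.206 with the length and GC offsets, where the log2 fold change was 0.32. Its 816 exon bases make it the shortest of the 36 genes, and reads that also fit Rps27 or pseudogenes could be assigned to either, so its level is uncertain.

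Trp53inp1, a p53-induced nuclear protein that promotes death and autophagy (ENSMUSG00000028211.11, chromosome 4, 11156431 to 11174379), had 1.97, 2.67 and 1.998 CPM in the controls and 0.378, 0.269 and 0.796 in the knockouts, from 117 and 25 counts in all. The groups did not overlap. Trp53inp1 fell from 2.21 ± 0.395 to 0.481 ± 0.278 CPM, so that the control mean was 4.60 times the knockout mean (log2 fold change -2.13, SE 0.44, adjusted p = 0.0102). The call was lost without 1 library (control 2, then log2 fold change -1.98, adjusted p = 0.0602).

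Apaf1, the scaffold of the apoptosome (ENSMUSG00000019979.12, chromosome 10, 90989311 to 91082770), had 32.5, 47.0 and 42.5 CPM in the controls and 21.3, 28.5 and 25.6 in the knockouts. Library 1 was the lowest in each group, and the groups did not overlap. Apaf1 fell from 40.7 ± 7.43 to 25.2 ± 3.65 CPM (log2 fold change -0.69, SE 0.18, adjusted p = 0.0199). Apaf1 lost its call without single libraries (control 2, control 3 and knockout 3, then log2 fold change -0.58 to -0.70 and adjusted p = 0.104, 0.0565 and 0.0649 in that order) and with the length and GC offsets (-0.43, adjusted p = 0.118).

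Pidd1, a p53-induced scaffold that activates a caspase (ENSMUSG00000025507.13, chromosome 7, 141438113 to 141444025), had 34.2, 30.1 and 27.1 CPM in the controls and 15.2, 19.1 and 21.7 in the knockouts. The lowest control lay above the highest knockout. Pidd1 fell from 30.4 ± 3.58 to 18.7 ± 3.30 CPM (log2 fold change -0.70, SE 0.17, adjusted p = 0.0177), a call that was lost without single libraries (control 2 and knockout 2, then log2 fold change -0.71 and adjusted p = 0.0733 and 0.0589 in that order).

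Bax, the pore-forming effector of mitochondrial death, had 89.4, 78.6 and 108 CPM in the controls and 96.8, 134 and 179 in the knockouts. Knockout 1 lay inside the control range (log2 fold change 0.57, 95% interval 0.09 to 1.05, adjusted p = 0.0763). Bax passed in DESeq2 (adjusted p = 0.0383), with no filter on low counts (0.0158) and without knockout 1 (0.76, 0.00351). It shares 192 exon bases with Gm45808 on the same strand. Pmaip1, the BH3-only protein NOXA, had 77.6 ± 21.8 CPM in control against 71.4 ± 7.91 in knockout (log2 fold change -0.12, 95% interval -0.56 to 0.32, adjusted p = 0.668). The nuclease Aen (-0.24, adjusted p = 0.296), the endoplasmic reticulum protein Ei24 (0.08, 0.622) and the death regulator Tnfaip8 (-0.03, 0.920) did not pass either. Ei24 was the steadiest of the 33 tested p53 genes over the controls, at 79.1 ± 1.43 CPM.

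Perp, Phlda3 and Eda2r had too few counts to test. Perp, a tetraspan membrane protein, had 7 counts in control and 0 in knockout. Phlda3, an inhibitor of Akt, had 4 counts, all in control 2, the library with the fibroblast transcripts. The death receptor Eda2r had 0 of 101037095 counts, which allows up to 0.0297 CPM (3 counts, for counting error only).

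The repair genes all had negative log2 fold changes, and 1 of 3 was called. Ddb2, the damage sensor of nucleotide excision repair (ENSMUSG00000002109.14, chromosome 2, 91211572 to 91236982), had 8.86, 10.4 and 11.03 CPM in the controls and 7.40, 5.37 and 6.32 in the knockouts. The groups did not overlap. Ddb2 fell from 10.1 ± 1.11 to 6.36 ± 1.01 CPM (log2 fold change -0.67, SE 0.21, adjusted p = 0.0399), and the call was lost without single libraries (control 2, control 3, knockout 2 and knockout 3, then log2 fold change -0.57 to -0.66 and adjusted p = 0.148, 0.134, 0.140 and 0.114 in that order). It shares 652 exon bases with Acp2 on the opposite strand, so that reads of the 2 genes may be mixed. Rrm2b, the p53-inducible subunit of ribonucleotide reductase, had 27.7 ± 3.50 CPM in control against 20.5 ± 1.85 in knockout (log2 fold change -0.43, 95% interval -0.77 to -0.10, adjusted p = 0.0581). It passed when scaled by library totals (adjusted p = 0.0286) and without knockout 1 (0.0213). The translesion polymerase Polk was at -0.37 (adjusted p = 0.205), and at -0.54 without knockout 1 (0.0448).

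Of the metabolic genes, Tigar, a phosphatase that lowers glycolytic flux and favours NADPH production (ENSMUSG00000038028.9, chromosome 6, 127085116 to 127109557), had 133, 118 and 117 CPM in the controls and 171, 178 and 165 in the knockouts. Both groups were tight and apart. Tigar rose from 123 ± 9.15 to 171 ± 6.29 CPM (log2 fold change 0.48, SE 0.12, adjusted p = 0.0197). Tigar lost its call without single libraries (control 2, control 3, knockout 2 and knockout 3, then log2 fold change 0.45 to 0.51 and adjusted p = 0.110, 0.0727, 0.0702 and 0.0593 in that order) and when scaled by library totals (adjusted p = 0.0596). Tigar shares 122 exon bases with Platr31, and Rrm2b of the repair genes 734 with Gm49085.

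Sesn1, a sestrin that restrains mTOR signalling (ENSMUSG00000038332.13, chromosome 10, 41809935 to 41908424), had 26.1, 39.9 and 37.2 CPM in the controls and 21.8, 25.9 and 22.1 in the knockouts. Control 1 lay just above the highest knockout library. Sesn1 fell from 34.4 ± 7.31 to 23.3 ± 2.28 CPM (log2 fold change -0.57, SE 0.18, adjusted p = 0.0418), and the call was lost without single libraries (control 2, control 3, knockout 2 and knockout 3, then log2 fold change -0.45 to -0.65 and adjusted p = 0.183, 0.117, 0.0756 and 0.130 in that order).

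Sat1, a polyamine acetyltransferase tied to ferroptosis as a p53 target, had 103, 189 and 247 CPM in the controls and 172, 268 and 253 in the knockouts. Library 1 was low in each group and the groups overlapped (log2 fold change 0.36, 95% interval -0.27 to 0.99, adjusted p = 0.365). The mitochondrial glutaminase Gls2, also placed between p53 and ferroptosis, had 16.5 ± 2.07 CPM in control against 14.3 ± 0.0956 in knockout (log2 fold change -0.20, 95% interval -0.55 to 0.15, adjusted p = 0.368). The lysosomal autophagy protein Dram2 had a log2 fold change of 0.29 (adjusted p = 0.210).

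**Figure D3:**
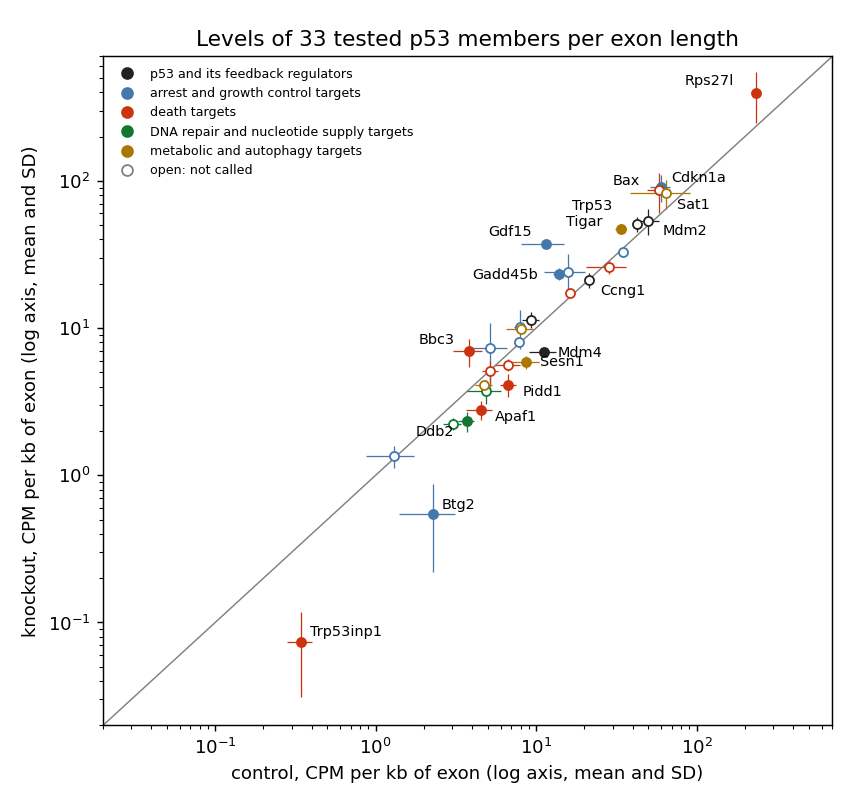
Mean level per kb of exon in control (x) and knockout (y), with SD over 3 libraries, for the 33 tested p53 genes on log axes, coloured by role and filled where called. The diagonal marks equal levels: Rps27l is the highest in both groups, Gdf15 lies above the diagonal, and Trp53inp1 and Btg2 lie below it.

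Per kb of exon, control levels ran from 0.342 ± 0.0610 CPM per kb for Trp53inp1 to 236 ± 8.54 for Rps27l (SD, n = 3). Sat1 (64.7 ± 26.1), Cdkn1a (59.8 ± 8.29), Bax (58.4 ± 9.51), Mdm2 (49.8 ± 8.75) and Trp53 (42.7 ± 1.78) came next on that scale, and each neighbouring pair among these 5 had overlapping SD ranges. Btg2 (2.27 ± 0.863) and Gadd45a (1.31 ± 0.433) were among the lowest.

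Library 1 was low for many of the genes in both groups. Control 1 was the lowest of the 3 controls for 22 of the 33 tested genes (66.7%), and for 38.9% of all tested genes. Knockout 1 was the lowest knockout library for 18 (54.5%, and 40.5% of all tested genes). Each was also the least deeply sequenced library of its group. Immediate early genes, which growth factors and stress induce within minutes, had a lower summed level in these libraries. It was 316 CPM in control 1 against 498 and 544 in the other controls, and 359.9 in knockout 1 against 862 and 953. Abundant genes weigh most in such a sum, and not every gene followed it. Among the knockouts Atf3 was highest in knockout 1 (101.6 CPM, against 63.3 and 62.3). Among the controls Fosl1 was highest in control 1 (15.2 CPM, against 14.5 and 10.5). Of 12 tested immediate early genes 1 was higher and 1 lower in knockout (16.7% called, against 25.3% of all genes). Ier3 rose (log2 fold change 1.43, SE 0.35, adjusted p = 0.0175) and the transcription factor Egr1 fell (log2 fold change -2.99, SE 0.51, adjusted p = 0.00497). Ier3 lost its call without single libraries (control 1, control 2, knockout 2 and knockout 3, then log2 fold change 1.21 to 1.46 and adjusted p = 0.0591, 0.0694, 0.0692 and 0.0639 in that order) and with the length and GC offsets (1.00, adjusted p = 0.0584). The part of this difference between libraries in the results was not tested.

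**Figure D4:**
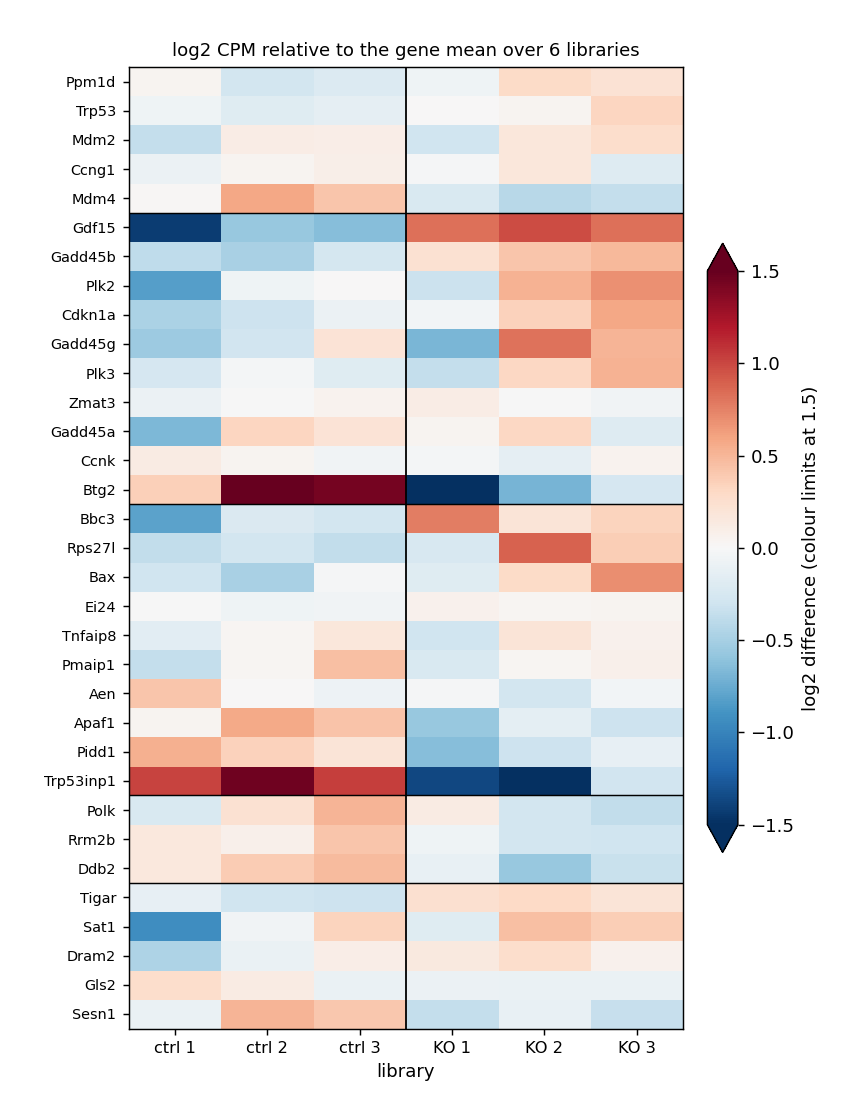
Log2 CPM of the 33 tested p53 genes (rows, by role) in each library (columns), relative to the gene's mean over the 6 libraries, with colours limited at 1.5. Plk2 and Gadd45g are redder in knockout 2 and 3 than in knockout 1, and Bbc3 is reddest in knockout 1.

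Genes of the ATF4 and CHOP stress pathway, for which Gdf15 and Bbc3 are also known targets, had their highest level in knockout 1 for 12 of 12 tested genes, where 14.8% of all tested genes did. Their summed level was 3337 CPM there, 2639 and 2565 in knockout 2 and 3, and 1874 to 2004 in control. Phgdh, of serine synthesis (log2 fold change 0.75, SE 0.12, adjusted p = 0.00460), Ddit3, which encodes CHOP (log2 fold change 1.67, SE 0.36, adjusted p = 0.0119), and Atf4 (log2 fold change 0.59, SE 0.14, adjusted p = 0.0152) rose, and 0 of the 12 fell. These 3 of 12 calls (25.0%) are near the 25.3% called over all genes. Called or not, 11 log2 fold changes were positive and 1 was negative. The genes did not move alike in knockout 2 and 3. Phgdh had 1051 and 1033 CPM there (control mean 630), and Atf4 585 and 518 (control mean 392.5). Slc7a11 had 42.0 and 34.3 CPM (45.2 to 49.8 in control), and Atf5 3.83 and 4.33 (5.87 to 9.31). Ddit3 had 6.98, 7.35 and 7.55 CPM in the controls and 39.9, 13.6 and 16.5 in the knockouts. Bbc3 was highest in the same library, while Gdf15 was highest in knockout 2. Without knockout 1 the log2 fold change of Ddit3 was 1.04 (adjusted p = 0.000978). Leaving out a library ended the calls of Ddit3 (control 2, then log2 fold change 1.67, adjusted p = 0.0528) and Atf4 (control 2, then log2 fold change 0.57, adjusted p = 0.0879), and the length and GC offsets that of Atf4 (0.38, adjusted p = 0.0799). The part of this pathway in the rise of Gdf15 and Bbc3 was not tested.

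Upstream regulators and cofactors of p53 outside the 36 genes had 4 higher and 4 lower of 17 tested (47.1% called, against 25.3% of all genes, median 0.08). Atm, the kinase that reports DNA breaks to p53, had 134, 137 and 103 CPM in the controls and 74.7, 46.3 and 37.1 in the knockouts. Atm fell (log2 fold change -1.25, SE 0.24, adjusted p = 0.00788), as did the acetyltransferase Ep300 (log2 fold change -1.17, SE 0.20, adjusted p = 0.00459), and both stayed called with each library left out. With the length and GC offsets Ep300 was at -0.59 (adjusted p = 0.0106) and Atm at -1.01 (0.0124). Rpl11, a ribosomal protein that binds Mdm2 (log2 fold change 0.78, SE 0.16, adjusted p = 0.00931), and the chaperone Daxx (log2 fold change 0.56, SE 0.12, adjusted p = 0.0117) rose. Leaving out a library ended the calls of Rpl11 (control 2, then log2 fold change 0.75, adjusted p = 0.0599) and Daxx (control 2 and knockout 3, then log2 fold change 0.54 to 0.55 and adjusted p = 0.0736 and 0.0509 in that order). Cdkn2a, whose product ARF restrains Mdm2, and the p53 relative Trp63 had 0 counts in all libraries.

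Further p53 targets outside the 36 genes had 2 higher and 2 lower of 24 tested (16.7% called, against 25.3% of all genes, median 0.20). The BH3-only protein Bid had 136, 115 and 126 CPM in the controls and 187, 212 and 212 in the knockouts. Bid rose (log2 fold change 0.70, SE 0.13, adjusted p = 0.00665), as did the mitochondrial ferredoxin reductase Fdxr (log2 fold change 0.63, SE 0.12, adjusted p = 0.00800). The phosphatidate phosphatase Lpin1, whose groups overlapped and which was named after its values were seen, fell (log2 fold change -0.90, SE 0.26, adjusted p = 0.0327). Its call was lost with the length and GC offsets (-0.57, adjusted p = 0.108) and without single libraries (control 2, control 3, knockout 2 and knockout 3, then log2 fold change -0.70 to -0.86 and adjusted p = 0.142, 0.0809, 0.123 and 0.101 in that order). The calls of Bid and Fdxr were lost without control 2 at nearly the same size: Bid (control 2, then log2 fold change 0.64, adjusted p = 0.0515) and Fdxr (control 2, then log2 fold change 0.64, adjusted p = 0.0525).

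Cell cycle genes that p21 and the DREAM complex repress had 1 higher and 3 lower of 20 tested (20.0% called, against 25.3% of all genes, median -0.10). Called or not, 6 log2 fold changes were positive and 14 negative. Their summed level, in which abundant genes weigh most, was 4126, 4065 and 3911 CPM in the controls and 3246, 3691 and 3655 in the knockouts. The part of Cdkn1a in these values was not tested. The checkpoint kinase Bub1b (log2 fold change -0.64, SE 0.13, adjusted p = 0.00852), the kinetochore protein Cenpf (log2 fold change -0.73, SE 0.18, adjusted p = 0.0174) and the topoisomerase Top2a (log2 fold change -0.49, SE 0.13, adjusted p = 0.0246) fell, and Birc5, which encodes survivin, rose (log2 fold change 0.50, SE 0.16, adjusted p = 0.0438). With the length and GC offsets Cenpf (-0.27, adjusted p = 0.128), Top2a (-0.28, 0.0905) and Birc5 (0.35, 0.0836) were not called, nor was Birc5 when scaled by library totals (0.107). Leaving out a library ended the calls of Bub1b (control 2, then log2 fold change -0.58, adjusted p = 0.0604), Cenpf (control 2, knockout 2 and knockout 3, then log2 fold change -0.58 to -0.68 and adjusted p = 0.0820, 0.0695 and 0.0699 in that order), Top2a (control 2, control 3, knockout 2 and knockout 3, then log2 fold change -0.42 to -0.49 and adjusted p = 0.141, 0.0813, 0.0739 and 0.0918 in that order) and Birc5 (control 1, control 2, control 3, knockout 2 and knockout 3, then log2 fold change 0.38 to 0.57 and adjusted p = 0.0544, 0.187, 0.0931, 0.162 and 0.123 in that order).

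**Figure D5:**
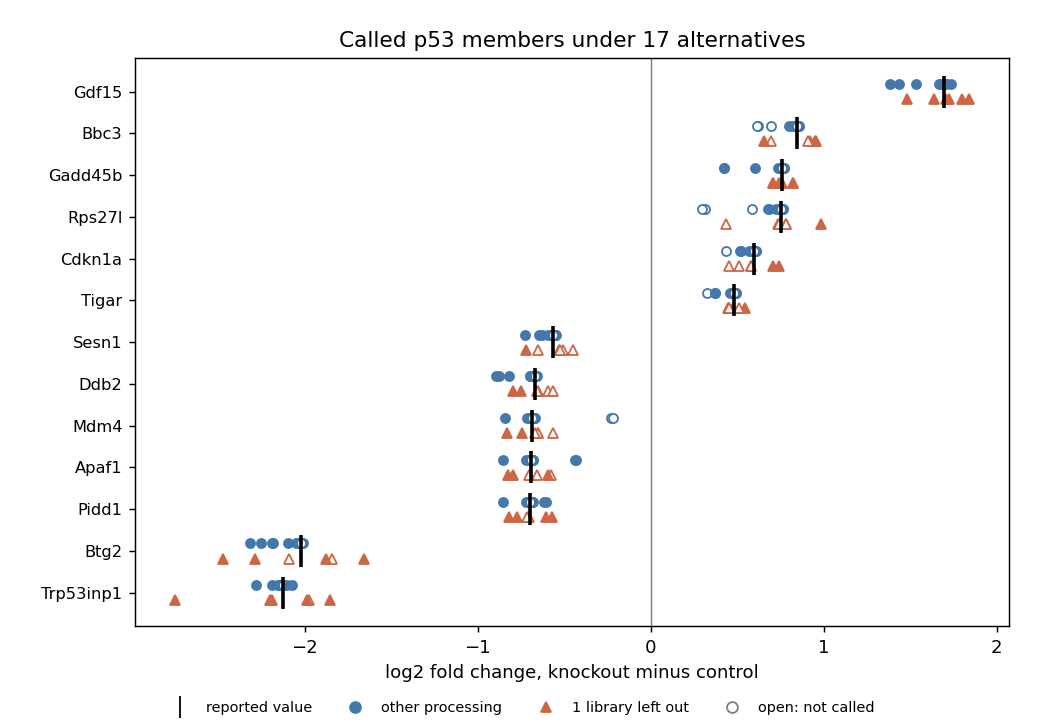
Log2 fold change of the 13 called members (black bar) and under 17 alternatives: circles for other processing, triangles for 1 library left out, open where the gene was not called. Gdf15 is filled throughout, from 1.39 to 1.84, and Mdm4 comes closest to 0, at -0.22.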

How the data were processed

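The 6 DC2.4 libraries were grouped and numbered by their titles. The values deposited by the authors are raw read counts per gene. The submitters' processing notes name Trimmomatic 0.39, STAR 2.7.5c, StringTie 2.1.7 and the build mm10. The sources used here do not give the counter, its annotation or its strand setting, so overlapping genes cannot be separated.

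Of 31205 genes, 18546 had a count and 11453 passed edgeR's filterByExpr. Knockout and control were compared with TMM factors and the quasi-likelihood test of edgeR 4.0.16 (limma 3.58.1, R 4.3.3), two-sided, with Benjamini-Hochberg adjustment over all tested genes. The biological coefficient of variation was 17.5%. The scripts were tested on simulated counts. Exon length, GC content and positions came from GENCODE vM21, in which 30260 symbols matched directly.

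Alternatives were other scalings and filters, DESeq2 1.42.0, limma-voom, a replicate block, glmTreat, each library left out, and offsets for length and GC content (robust loess, span 0.3). Members, lists and motifs were chosen with earlier results of these data known, although no measured value enters the rule for members. The called members, Trp53, Mdm2 and Cdkn1a are given per library. Of each other list, up to 4 called genes were named, those whose groups did not overlap and whose adjusted p was lowest, and Lpin1 was added. That the groups of these genes, Lpin1 apart, do not overlap follows from this rule and is no separate result. A gene that this rule names among further p53 targets is not reported here.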

Additional observations from a re-analysis of the deposited data

How the results depend on the processing

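Against 6 members higher and 7 lower, and 1353 and 1543 genes over the whole table, scaling by library totals gave 2 members higher and 667 and 2212 genes. glmTreat gave 1 and 0 members (2 lower at an unadjusted p under 0.05) and 30 and 312 genes. Leaving out each library in turn gave 2 to 11 members higher and 0 to 9 lower. Over the whole table this gave 1169 and 1306 genes without control 1, 166 and 472 without control 2, and 666 and 1117 without control 3. It gave 2346 and 2616 without knockout 1, 399 and 645 without knockout 2, and 540 and 682 without knockout 3. The length and GC offsets gave 4 members higher and 5 lower. Of the 13 called members 0 changed direction under the 17 alternatives, and 11 lost the call with some library left out.

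Of the 20 members that were not called, 7 changed sign, and none was called where its sign had changed. When scaled by library totals these were Mdm2 (-0.0604), Gadd45a (-0.14), Zmat3 (-0.13) and Ei24 (-0.0698). Gadd45a was at -0.00910 with upper quartile factors. With the length and GC offsets Gadd45a was at -0.30 (-0.28 with the replicate block too) and Tnfaip8 at 0.31 (0.29). With single libraries left out, the log2 fold change ran from -0.0336 to 0.25 for Mdm2, -0.12 to 0.0684 for Ccng1, -0.20 to 0.19 for Gadd45a, -0.0239 to 0.0691 for Zmat3, -0.29 to 0.11 for Pmaip1 and -0.13 to 0.0956 for Tnfaip8. The cause of these changes was not tested.

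The labels do not say whether libraries with the same number were handled together. Their deviations from the group means correlated at 0.154, -0.0640 and 0.358 for numbers 1, 2 and 3. Control 1 correlated best with knockout 1 and control 3 with knockout 3, whereas control 2 correlated best with knockout 1 (0.141). With the replicate block 8 members were higher, Plk2 (adjusted p = 0.0119) and Bax (0.0309) being added, and 7 lower. Depth limits the precision of Trp53inp1 and Btg2, with 25 and 78 counts in all knockout libraries.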
